A study of Mus musculus with 4 samples.

Results

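The kinesin genes of the mouse retina were followed in wildtype E13.5 retinas and in retinas with a conditional deletion of Nrf1, a transcription factor of nuclear genes for mitochondrial proteins. The group was taken by gene symbol as every Kif gene with a number and an optional letter a to c, the kinesin light chain genes Klc1 to Klc4, and Kifc1, Kifc2, Kifc3 and Kifap3. Of 24062 genes in the count table, 45 matched. They were sorted by their known roles into 13 mitotic motors, 22 transport motors with their cofactors, 6 ciliary motors and 4 others. Kif12 and Kif2b had 0 counts in every library, and the other 43 passed the filter on low counts that left 15762 genes tested.

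The wildtype group held 2 libraries and the Nrf1-CKO group 2 libraries, all of total RNA from E13.5 retinas of mice on a mixed C57BL/6 and 129 background. Nrf1-CKO retinas were Nrf1 f/f;Six3-Cre, in which Cre under Six3 control removed a loxP-flanked exon of Nrf1 from retinal progenitor cells (RPCs), mainly in the central retina. Retinas of several littermates were pooled, and the sources do not say whether the second library of a genotype came from a separate pool, so the p-values measure only the spread between these libraries. Between 74577660 and 85933945 reads were counted on genes per library. The labels call the controls wild type and do not say whether they carried Cre. Nrf1 itself had 9052 and 7789 counts in wildtype and 8594 and 8284 in Nrf1-CKO (edgeR adjusted p = 0.794), and a whole-gene count cannot show the loss of 1 exon.

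Kinesins are motor proteins that use ATP to move along microtubules. Mitotic kinesins assemble the spindle, move chromosomes and complete cytokinesis, and are made mostly by dividing cells such as RPCs. Transport kinesins carry mitochondria, vesicles and other cargo into axons and dendrites, and are abundant in neurons such as retinal ganglion cells (RGCs), whose axons form the optic nerve. Kinesin-1 pairs a Kif5 heavy chain with Klc light chains, and kinesin-2 joins Kif3a to Kif3b or Kif3c, with Kifap3 as the cargo-binding subunit.

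The main result was a split by role. As shares of the counted reads, not amounts per retina, the mitotic motors summed to 100.3% of wildtype while several neuronal transport motors fell. Kif5a, the heavy chain enriched in neurons, was at 34.7% of wildtype and Kif5c at 51.0%. Their relative Kif5b, made in most tissues, overlapped between genotypes. A gene was called where it differed at least 1.4-fold with an adjusted p of at most 0.2 in the quasi-likelihood test of edgeR. By this rule 9 of the 43 kinesin genes (20.9%) were lower in Nrf1-CKO retinas and 1 (2.33%) was higher, beside 8.04% lower and 12.8% higher among all genes tested. The median log2 fold change was -0.04 over the 43 genes and 0.00073 over all genes. Both Nrf1-CKO libraries lay below both wildtype libraries in 20 kinesin genes and above both in 8, where 31.6% and 30.9% of all genes did so.

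**Figure D1:**
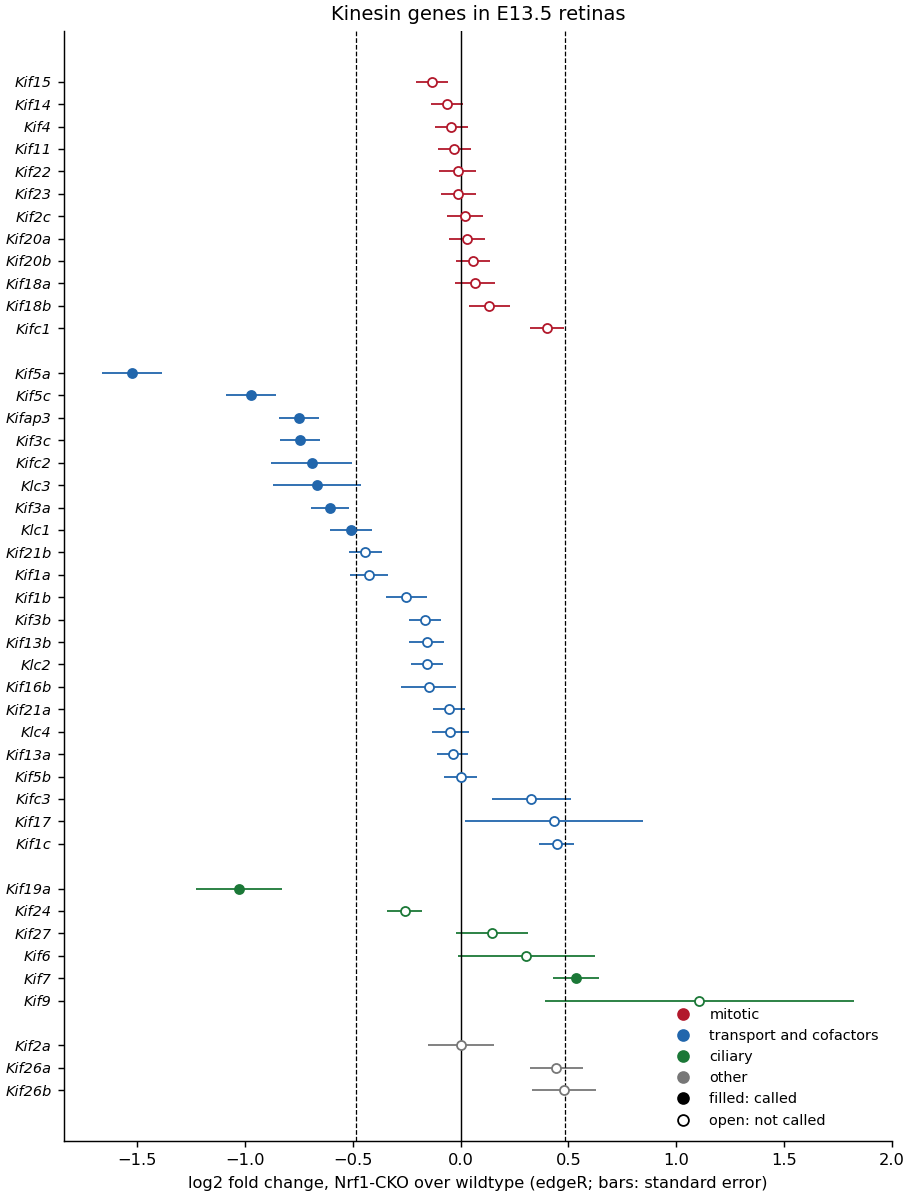
Log2 fold change (x axis, Nrf1-CKO over wildtype) of the 43 tested kinesin genes, in rows by role, with edgeR standard errors as bars, filled points for called genes and dashed lines at a fold of 1.4. All 12 mitotic genes lie between the dashed lines, and 8 of 22 transport genes lie to the left of them.

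Several promoters from both classes are shown with sequence motifs marked around the transcription start. RefSeq start-site windows on GRCm38.p6 were matched for 36 of the 45 genes. Each stretch below runs from 150 bases before to 25 bases after the annotated start, 5′ to 3′ on the gene's strand. In the Kif3a (chr11:53567219-53567393, plus strand) and Kifap3 (chr1:163779433-163779607, plus strand) stretches, capitals mark CGCANGCG, the palindromic core that Nrf1 is known to bind, with 1 free base, on either strand. In those of Kif11 (chr19:37376232-37376406, plus strand) and Kif23 (chr9:61946775-61946949, minus strand), capitals mark TTTGAA or its reverse complement, the letters of the cell cycle homology region known from promoters of late cell cycle genes. The Kif23 stretch also holds 1 match to CGCANGCG (cgcaggcg), which is left in lower case.
Kif3a: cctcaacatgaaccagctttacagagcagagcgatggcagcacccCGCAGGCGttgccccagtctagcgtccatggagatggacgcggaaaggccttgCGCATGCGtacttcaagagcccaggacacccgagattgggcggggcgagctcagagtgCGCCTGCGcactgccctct
Kifap3: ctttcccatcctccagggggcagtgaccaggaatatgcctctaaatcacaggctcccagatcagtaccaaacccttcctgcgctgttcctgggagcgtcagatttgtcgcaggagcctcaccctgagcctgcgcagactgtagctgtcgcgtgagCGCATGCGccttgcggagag
Kif11: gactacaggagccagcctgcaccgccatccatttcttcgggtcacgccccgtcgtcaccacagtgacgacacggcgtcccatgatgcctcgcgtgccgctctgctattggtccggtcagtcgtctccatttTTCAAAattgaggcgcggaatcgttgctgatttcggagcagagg
Kif23: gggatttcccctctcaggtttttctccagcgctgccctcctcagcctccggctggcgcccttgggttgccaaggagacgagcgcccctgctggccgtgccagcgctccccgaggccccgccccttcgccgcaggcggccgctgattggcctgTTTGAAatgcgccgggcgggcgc

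Over the full windows, which ran from 250 bases before to 50 bases after the start, motif matches were counted by role. TTTGAA stood in the windows of 10 of 12 mitotic genes and of 1 of 15 transport genes (Kif1a), against 14.1% of tested genes that had a window. The matching windows of Kif2c, Kif4, Kif14 and Kif1a lay inside the annotated gene, downstream of its outermost start. The Kif1a window at the gene start held no match. The CCAAT box, often found beside it, stood in 8 of the mitotic windows and 6 of the transport windows, against 42.3% of tested genes. The mitotic windows without TTTGAA were those of Kif18a and Kif2b. The mitotic genes with a window are not the same set as those tested, as Kif2b was not tested and Kif20a had no window.

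CGCATGCG, the full Nrf1 core, stood in the windows of Kif3a and Kifap3 among the transport genes and of none of the 12 mitotic genes, against 3.87% of tested genes. The looser CGCANGCG added Klc3, so that it stood in 3 of 15 transport windows and 2 of 12 mitotic windows (20% and 16.7%), close to the 17.6% of tested genes. Its 3 transport matches were among the 6 lower genes with a window, and 0 of the 9 uncalled genes had one, where 23.4% of all genes called lower held it. The promoter of Kif5a was not analysed here. The mitotic matches were Kif18b and Kif23, and Kif2a held it at 2 places, none of them called. Kif26a held the full core too, and its log2 difference was 0.44 in the other direction (edgeR adjusted p = 0.0314), under 1.4-fold. In Kif3a CGCANGCG occurred 3 times in the window, 1 of them the full core. Among all genes the full core stood in the windows of 6.52% of those called lower and 0.481% of those called higher. These are matches of letters, and no binding was measured.

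Among the mitotic motors, 0 of the 12 tested genes were called by edgeR, and 0 by DESeq2, beside 8.04% lower and 12.8% higher among all genes. Only Kifc1 had an unadjusted p under 0.05. Their median log2 fold change was 0.0046, with a range from -0.13 (Kif15, a spindle motor that works with Kif11) to 0.40 (Kifc1). In 9 of the 12 the genotypes overlapped, and both Nrf1-CKO libraries lay below wildtype in 2 and above it in 1, against 31.6% and 30.9% of all genes. Counts were scaled to the reads mapped to genes (CPM, after TMM factors). A level is thus a share of a library, not an amount per retina. The study counted fewer S-phase and M-phase RPCs per section in E13.5 Nrf1-CKO retinas, which these shares do not measure. Summed over the class, the level was 1687 and 1616 CPM in wildtype and 1616 and 1698 CPM in Nrf1-CKO retinas, which was 100.3% of wildtype.

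Kif11 (chr19:37376403-37421859), the motor that pushes spindle poles apart, was second in level per exon length among the mitotic kinesins, at 36.0 CPM per kilobase of exon (RPKM) in wildtype after Kif20a at 51.9 RPKM, which shares 29.3% of its exon bases with Cdc23. Its level was 276 and 261 CPM in wildtype and 261 and 266 CPM in Nrf1-CKO retinas. The genotypes overlapped, with a log2 difference of -0.03 ± 0.08 (SE, n = 2 per genotype) and edgeR adjusted p = 0.834. Kif20a, which acts at the cleavage furrow, was at 231 and 219 CPM in wildtype and 218 and 240 CPM in Nrf1-CKO. Kif23, a subunit of the centralspindlin complex of the midzone, was at 120 and 110 CPM against 111 and 117 CPM. In each gene the libraries of one genotype lay inside the range of the other, with log2 differences of 0.03 ± 0.08 and -0.01 ± 0.08 and edgeR adjusted p of 0.852 and 0.945.

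The other mitotic motors lay close to wildtype. Kif4, which condenses chromosomes and organises the midzone, was at 97.0% of wildtype, Kif22, which moves chromosome arms, at 99.0%, and Kif2c, which depolymerises microtubules at centromeres, at 101%. Kif18a and Kif18b, which limit the length of spindle and astral microtubules, were at 105% and 110%, and Kif14 and Kif20b, which act in cytokinesis, at 95.7% and 104%. In none of these 7 did the edgeR test reach an adjusted p of 0.2.

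Kifc1, the minus-end motor that clusters centrosomes, stood apart from the rest of its class. It was at 44.9 and 41.5 CPM in wildtype and 56.0 and 58.1 CPM in Nrf1-CKO retinas, without overlap. The difference of 0.40 ± 0.08 on the log2 scale had an edgeR adjusted p of 0.00698 but stayed under 1.4-fold, so Kifc1 was not called. Its near copy Kifc5b, outside the symbol rule, had 1294 and 996 counts in wildtype and 1746 and 1835 in Nrf1-CKO, and was called higher (log2 0.61, edgeR adjusted p = 0.00424). Reads aligned equally to both copies are not unique and were counted for neither gene. The summed counts of the 2 copies, which lack such reads, differed by 0.46 on the log2 scale.

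A list of 22 spindle, checkpoint and cytokinesis partners was measured beside the mitotic motors. By edgeR 0 of the 22 were called, beside the same 8.04% and 12.8% of all genes. Their median log2 difference was -0.07 and their summed level was 94.9% of wildtype. Cenpe, a kinetochore kinesin whose name falls outside the symbol rule, was at 292 and 261 CPM in wildtype and 291 and 282 CPM in Nrf1-CKO, which overlapped. Aurkb, the kinase of the chromosomal passenger complex, differed by -0.15 and Plk1 by 0.12 on the log2 scale, with edgeR adjusted p of 0.232 and 0.297. An adjusted p of at most 0.2, below the fold of 1.4, was reached by 3 lower genes and 1 higher gene, against 19.5% and 20.4% of all genes with no fold limit. They were the checkpoint gene Mad2l1 (-0.32), Racgap1 (-0.22), Hmmr (-0.21) and Ccnb1 (0.25).

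Among the transport motors and cofactors 8 of 22 were called lower and 0 higher, beside 8.04% and 12.8% of all genes tested. When glmTreat tested against a fold of 1.4, 4 were lower (Kif5a, Kif5c, Kifap3 and Kif3c), beside 743 of all 15762 genes tested. Both Nrf1-CKO libraries lay below both wildtype libraries in 16 of the 22 and above both in 3 (Kif1c, Kifc3 and Kif17). Among all genes tested 31.6% lay below and 30.9% above in this way. The median log2 difference was -0.21, with a range from -1.53 to 0.45, and the median was -0.36 without the first Nrf1-CKO library. Summed, the class stood at 2934 and 3070 CPM in wildtype and 2399 and 2181 CPM in Nrf1-CKO, or 76.3% of wildtype. The ratio of the summed mitotic level to the summed transport level was 0.575 and 0.526 in wildtype and 0.674 and 0.779 in Nrf1-CKO retinas, without overlap.

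Markers of RGCs and young neurons moved with the transport motors. Of 12 such genes 11 were called lower and all 12 lay below wildtype in both Nrf1-CKO libraries, beside 8.04% and 31.6% of all genes tested. The median log2 difference of the 12 was -1.58. The 11 called genes stand in the study's own list of genes picked as lower in these libraries and enriched in Atoh7+ cells, so their direction is not independent evidence. Their summed level was 3120 and 3553 CPM in wildtype and 1356 and 1104 CPM in Nrf1-CKO, or 36.9%. In bulk RNA, fewer cells of a type and less RNA per cell cannot be told apart, and the part of the neuron markers in the kinesin differences was not tested. Of 13 RPC markers 3 were called lower (Ccnd1, Hes5 and Fgf15) and 7 lay below wildtype in both Nrf1-CKO libraries, beside the same 8.04% and 31.6%. Their median log2 difference was -0.10. Their summed level of 79.6% of wildtype was weighted by Ccnd1 (2658 to 1446 CPM) and Fgf15 (1137 to 701 CPM), which the study had also listed as lower in these libraries.

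Many marker genes of lens, macrophages, pigment epithelium and periocular mesenchyme were higher in the Nrf1-CKO libraries. The source of this RNA was not tested. For comparison with the counts below, 12.8% of all genes tested were called higher and 8.04% lower. All 10 lens genes were called higher, with a sum of 141 and 402 CPM in wildtype and 8103 and 3401 CPM in Nrf1-CKO. The 7 macrophage genes were all called higher and summed to 335% of wildtype, as were 4 of 5 tested pigment epithelium genes (220% in sum) and 5 of 7 genes of periocular mesenchyme (162%). Of 6 endothelial genes 4 were called higher and 1, Kdr, lower (205 to 141 CPM), and Kdr carried most of their summed level, which was 98.1%, while 2 of 3 tested erythroid genes were called higher, with Hba-a1 and Hbb-bt at 0 counts. Of 6 photoreceptor precursor genes 2 were called lower. Scaling without these marker genes changed no call among the kinesins, and their part in single kinesin differences was otherwise not tested.

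**Figure D2:**
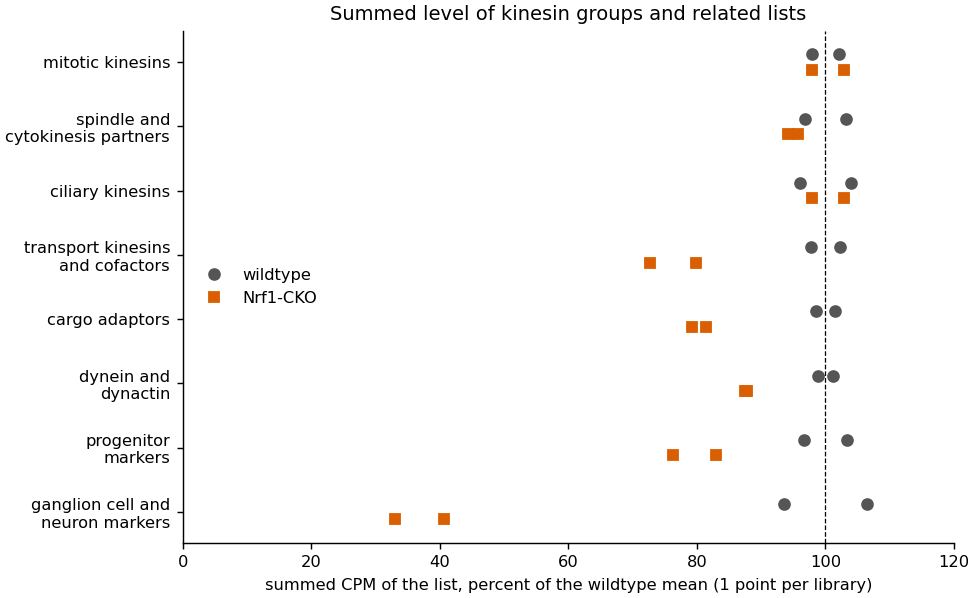
Summed CPM of kinesin classes and related lists in each library (x axis, percent of the wildtype mean of that list), with circles for wildtype and squares for Nrf1-CKO. The mitotic and ciliary classes overlap between genotypes, the transport class stands at 79.9% and 72.6% in the Nrf1-CKO libraries, and the RGC and neuron markers stand at 40.7% and 33.1%.

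Within kinesin-1, the neuronal heavy chains fell. Kif5a (chr10:127225696-127263348, minus strand), linked to hereditary spastic paraplegia in people, was at 128 and 149 CPM in wildtype and at 55.2 and 40.9 CPM in Nrf1-CKO retinas. Every Nrf1-CKO value was well below every wildtype value, and the log2 difference was -1.53 ± 0.14 (edgeR adjusted p = 0.000201). The study had itself listed Kif5a among genes picked as lower in these libraries, so its direction is not independent evidence. Kif5c (chr2:49619298-49774778), the other neuronal heavy chain, was at 359 and 355 CPM in wildtype and at 205 and 159 CPM in Nrf1-CKO, a difference of -0.97 ± 0.12 (edgeR adjusted p = 0.000564).

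Kif5b, the heavy chain made in most tissues, did not show this difference. It was at 190 and 193 CPM in wildtype and at 198 and 185 CPM in Nrf1-CKO, so the wildtype values lay inside the Nrf1-CKO range, with a log2 difference of -0.00015 ± 0.08 and an edgeR adjusted p of 0.999. Levels of the 3 heavy chains were set side by side per exon length, in RPKM. Together they came to 92.3 and 95.1 RPKM in wildtype and 61.4 and 51.2 RPKM in Nrf1-CKO, or 60.1% of wildtype.

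The makeup of the Kif5 family differed accordingly. Kif5c held 54.4% and 52.2% of the family RPKM in wildtype and 46.7% and 43.4% in Nrf1-CKO. The share of Kif5a was 19.8% and 22.4% in wildtype and 12.9% and 11.4% in Nrf1-CKO. Kif5b took the rest, 25.8% and 25.4% in wildtype against 40.4% and 45.2% in Nrf1-CKO. Because these are shares of 1 total, that of Kif5b was larger while its own level was not.

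The light chains, which link kinesin-1 to cargo, were led by Klc1. Klc1 (chr12:111758849-111807844) was the highest of all 45 genes per exon length, at 74.1 RPKM in wildtype. Its level was 276 and 327 CPM in wildtype and 219 and 205 CPM in Nrf1-CKO, without overlap, and it was called lower just past the fold limit (-0.51 ± 0.10, edgeR adjusted p = 0.00605). Its call was lost without the second wildtype library (-0.38) or the second Nrf1-CKO library (-0.46). Klc3, a light chain best known from testis, was lower at a small level of 4.66 and 6.00 CPM in wildtype against 3.30 and 3.41 CPM (-0.67 ± 0.20, edgeR adjusted p = 0.0463). It lost its call without the second wildtype library (-0.47) and shares 28.1% of its exon bases with Ercc2. Klc2 was at 89.8% and Klc4 at 96.8% of wildtype, and neither was called.

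Kinesin-2, the Kif3 motor of axons and cilia, had 3 of its 4 subunits called lower, beside 8.04% of all genes tested. Kif3a (chr11:53567379-53601967), the subunit common to both forms of the motor, was at 146 and 144 CPM in wildtype and at 102 and 88.5 CPM in Nrf1-CKO (-0.61 ± 0.09, edgeR adjusted p = 0.00148). Kifap3 (chr1:163779583-163917109) was at 111 and 113 CPM against 71.7 and 61.2 CPM (-0.75 ± 0.09, edgeR adjusted p = 0.000613). These are the 2 transport genes whose windows above held the full Nrf1 core.

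Kif3c (chr12:3365132-3406494), the neuronal partner of Kif3a, was at 121 and 132 CPM in wildtype and at 80.6 and 70.3 CPM in Nrf1-CKO (-0.75 ± 0.09, edgeR adjusted p = 0.00069). Of its exon bases 40.7% are shared with other annotated genes, 1110002L01Rik and Gm48512, and whether counting used strand is not given in the sources used here. Kif3b, the partner found in most tissues, was at 58.9 and 57.3 CPM against 51.9 and 51.7 CPM, a log2 difference of -0.17 (edgeR adjusted p = 0.148) that did not reach 1.4-fold. Per exon length Kif3a held 59.6% of the family in wildtype and 57.8% in Nrf1-CKO, Kif3b 15.2% and 20.1%, and Kif3c 25.2% and 22.2%.

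**Figure D3:**
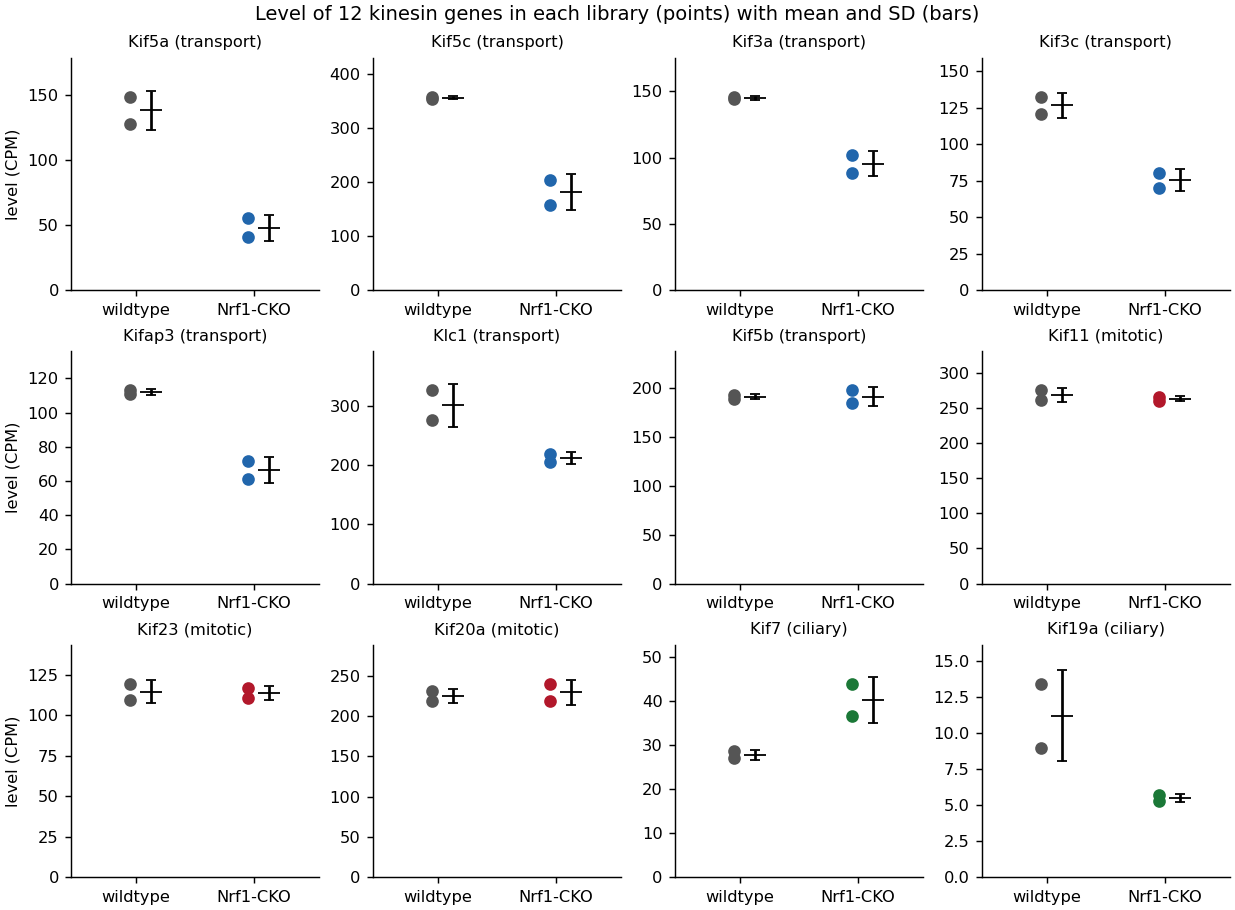
Level in CPM (y axis, from 0) of 12 kinesin genes, with 1 point per library and bars for the mean and SD (n = 2 per genotype). Kif5a falls from 128 and 149 CPM to 55.2 and 40.9 CPM, while the points of Kif5b, Kif11, Kif23 and Kif20a overlap between genotypes.

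Kinesin-3 motors carry synaptic vesicle precursors and dense-core vesicles, and showed smaller differences of both signs. Kif1a, the neuronal member, was at 385 and 421 CPM in wildtype and at 316 and 284 CPM in Nrf1-CKO, without overlap (-0.43 ± 0.09, edgeR adjusted p = 0.00918), short of 1.4-fold. Without the first Nrf1-CKO library the difference was -0.50, past that limit. Kif1b, which also carries mitochondria, was at 438 and 447 CPM against 403 and 341 CPM (-0.25 ± 0.10, edgeR adjusted p = 0.0937). Its difference was -0.14 without the second Nrf1-CKO library and -0.38 without the first, and its adjusted p was over 0.2 without the second Nrf1-CKO library (0.408) or either wildtype library (0.233 and 0.294).

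Kif1c, the widely expressed member, went the other way. It was at 109 and 103 CPM in wildtype and at 138 and 150 CPM in Nrf1-CKO (0.45 ± 0.08, edgeR adjusted p = 0.00448), again without overlap and under 1.4-fold. It passed the limit when either the first wildtype or the first Nrf1-CKO library was left out. Per exon length the share of Kif1a in its family was 50.8% and 53.3% in wildtype and 44.7% and 43.3% in Nrf1-CKO, and that of Kif1c was 18.4% and 16.7% against 25.1% and 29.2%. The summed Kif1 level was 88.2% of wildtype.

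**Figure D4:**
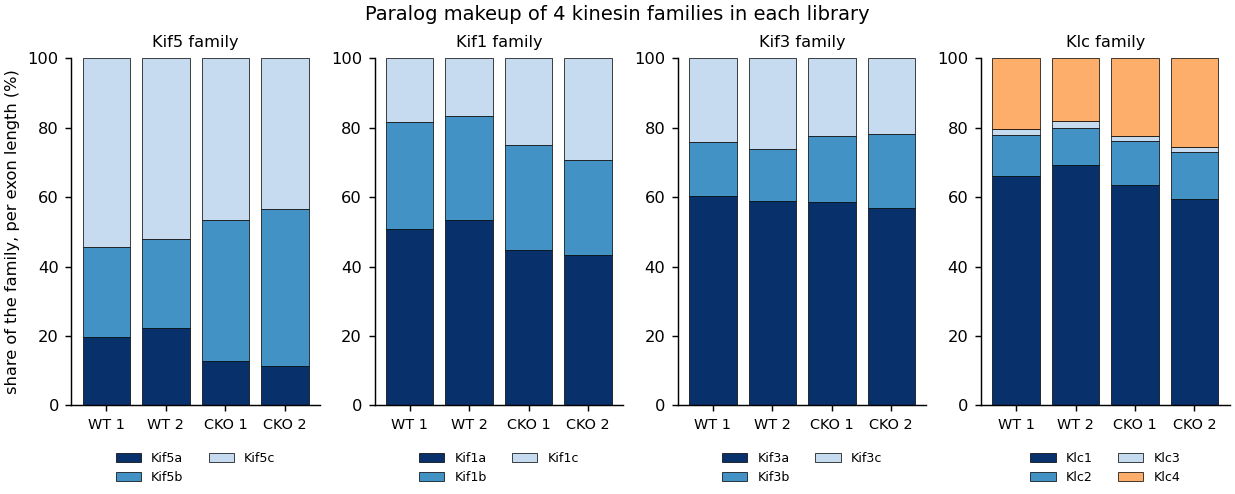
Share of each paralog (y axis, percent of the family's RPKM) in each of the 4 libraries (WT wildtype, CKO Nrf1-CKO) for the Kif5, Kif1, Kif3 and Klc families. Kif5b takes 25.8% and 25.4% of its family in wildtype and 40.4% and 45.2% in Nrf1-CKO, and Kif1c takes 18.4% and 16.7% against 25.1% and 29.2%.

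In the other transport families the neuronal member was again the lower one in Kif21. Kif21b, which is enriched in neurons, was at 154 and 163 CPM in wildtype and 118 and 116 CPM in Nrf1-CKO (-0.44 ± 0.08, edgeR adjusted p = 0.00337), short of 1.4-fold, whereas Kif21a, which tethers microtubule ends at the cell cortex, was at 96.3% of wildtype (edgeR adjusted p = 0.663). Kif13a and Kif13b, motors of endosomes and membrane cargo, were at 97.4% and 89.6%, and the endosome motor Kif16b at 90.2%, none of them called. Kifc2, a minus-end motor known from neurons, was called lower at 5.23 and 5.15 CPM against 3.30 and 3.13 CPM (-0.69 ± 0.19, edgeR adjusted p = 0.0291), but not with limma on the deposited normalized values (-0.33). Kifc3 and Kif17, at under 10 CPM in every library, had edgeR adjusted p of 0.244 and 0.512, and Kifc3 was called higher only without the second wildtype library.

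The 14 uncalled transport genes thus included several with small differences in 1 direction. With the fold limit dropped, 14 of the 22 were lower and 1 higher (Kif1c) at an adjusted p of at most 0.2, beside 19.5% lower and 20.4% higher among all genes tested. Over all 43 kinesin genes this gave 16 lower and 5 higher. Those that passed this p without reaching 1.4-fold and lay nearest to it were Kif26b (0.48), Kif1c (0.45), Kif21b (-0.44), Kif26a (0.44), Kif1a (-0.43) and Kifc1 (0.40).

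Further lists of partners were followed beside the transport motors. Of 25 dynein and dynactin genes, which move cargo back toward the cell body, 2 were called lower (Dync1li1 at -0.55 and Dctn6 at -0.53) and 0 higher, the median log2 difference was -0.21 and the summed level was 87.7% of wildtype. The share called lower was close to the 8.04% of all genes. With no fold limit 13 of the 25 were lower, against 19.5% of all genes, and in 16 both Nrf1-CKO libraries lay below both wildtype libraries, against 31.6%. The dynein heavy chain Dync1h1 was at 1623 and 1797 CPM in wildtype and 1537 and 1533 CPM in Nrf1-CKO (edgeR adjusted p = 0.217). Among the 29 cargo adaptors measured, 5 were called lower and 1 higher (Clstn2, 0.61), beside 8.04% and 12.8% of all genes, with a median of -0.23 and a sum of 80.4%.

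The lower adaptors were Apba1 (-1.78), which joins synaptic cargo to Kif17, Mapk8ip2 (-1.01), a JNK scaffold on Klc, and Ppfia2 (-0.98), a liprin bound by Kif1a. Dpysl2 (-0.63), which links tubulin to Klc1, and Kidins220 (-0.56), a neurotrophin receptor scaffold, completed the set. The mitochondrial adaptors Trak1, Trak2, Rhot1 and Rhot2 were not called, with log2 differences of 0.29, -0.23, -0.11 and 0.20.

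Among the 6 ciliary kinesins 1 was called lower and 1 higher (16.7% each), beside 8.04% lower and 12.8% higher among all genes tested. With so few genes these counts describe single genes and not the class. Kif19a (chr11:114765388-114790739), which limits the length of motile cilia, was at 8.94 and 13.4 CPM in wildtype and at 5.27 and 5.67 CPM in Nrf1-CKO (-1.03 ± 0.20, edgeR adjusted p = 0.00642). The wildtype libraries differed more from each other than the Nrf1-CKO libraries did, yet the genotypes did not overlap. Its difference was -0.60 with limma on the deposited normalized values and between -1.29 and -0.70 when 1 library was left out, and it was called in each. Kif7 (chr7:79698098-79715720, minus strand), which organises the ciliary tip for Hedgehog signalling, was at 27.0 and 28.6 CPM in wildtype and at 36.5 and 44.0 CPM in Nrf1-CKO (0.54 ± 0.11, edgeR adjusted p = 0.0072). It was the only kinesin gene called higher, was not called without the second Nrf1-CKO library (0.39), with glmTreat or with limma on the normalized values (0.45), and shares 20.3% of its exon bases with other genes. Kif24 (83.5% of wildtype), Kif27, Kif6 and Kif9 were not called, and the class summed to 100.3% of wildtype.

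The remaining motors were Kif2a and the Kif26 pair. Kif2a, a microtubule depolymerase that trims axon branches, was at 62.6 and 61.6 CPM in wildtype but at 74.1 and 50.1 CPM in Nrf1-CKO, so that the Nrf1-CKO libraries lay on either side of wildtype (0.00051 ± 0.15, edgeR adjusted p = 0.998). Without the first of them the difference was -0.31. Kif26a and Kif26b, motor-like proteins without ATPase activity, differed by 0.44 and 0.48 with edgeR adjusted p of 0.0314 and 0.0478, without overlap between genotypes and under 1.4-fold. Kif26b was called higher without the second wildtype or the second Nrf1-CKO library, and Kif26a without the second wildtype or the first Nrf1-CKO library.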

How the data were processed

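Counts per gene were made by the authors, who aligned paired reads to mm10 with TopHat2 2.7.2 and counted them with HTSeq. The annotation release and strand setting are not given in the sources used here. The deposited log2 values were normalized by the authors and served only as an alternative with limma. The 5 HTSeq summary rows held 74.0% to 75.0% of the listed total and were left out. The row for alignments that were not unique held 54.6% to 58.0% of that total. R 4.3.3 and edgeR 4.0.16 were used: TMM factors (0.992 to 1.02), filterByExpr with a minimum count of 10, and glmQLFit over all 15762 genes with genotype as the only term, with Benjamini-Hochberg adjustment. Replicate pairs differed by more than sampling noise. RPKM used exon-union lengths from GENCODE M21 (GRCm38). Promoters came from RefSeq on GRCm38.p6. The test was checked on simulated data.

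Members and lists were chosen with earlier results of these data known. Named with full values were all called members and a fixed set of main motors. Of each partner list the called genes and up to 5 with the largest differences at a mean CPM of at least 1 could be named. Plk1, Dync1h1, Trak1, Trak2, Rhot1, Rhot2 and further uncalled members and partners were named after their values were seen. Of the adaptor list, 5 genes were dropped before values were read, and 2 names did not match. Same-numbered libraries did not deviate together (correlation -0.0017), so no pairing was used. Alternatives covered scaling, low-count filters, DESeq2 1.42.0, glmTreat, a replicate block, a stricter p and leaving out each library.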

Additional observations from a re-analysis of the deposited data

How the results depend on the processing

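The mitotic class gave 0 called genes under every alternative, and Kif5a, Kif5c, Kifap3, Kif3c and Kif19a were called lower under every one. The count of lower kinesins fell from 9 to 5, and of lower transport genes from 8 to 4, when glmTreat tested against a fold of 1.4. Leaving out each library gave 7 to 10 and 6 to 9. The count of higher kinesins was 1, and 2 with upper-quartile factors or with at least 10 counts in every library, 0 with glmTreat or with the deposited normalized values in limma, and 1 to 4 without 1 library. Over all genes, calls went from 1268 lower and 2024 higher to 743 and 1188 with glmTreat and to 723 and 945 with limma on the normalized values. Without 1 library the mitotic median ranged from -0.048 to 0.062 and the transport median from -0.36 to -0.17.

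With the replicate number as a block the same 9 genes were lower and the same 1 higher, though the sources do not say that a number marks a shared pool or experiment, and Kif2a moved to -0.025. Log2 differences near 0 changed sign, none of them called: Kif11 to 0.011 and Kif23 to 0.029 with upper-quartile factors, Kif5b to 0.0043 (DESeq2), 0.039 (upper quartile), 0.0059 (10 counts in every library), 0.0033 (limma) and 0.00055 (other-tissue markers left out of scaling), and Kif2a to -0.019 (library size only), -0.018 (limma) and -0.00037 (no filter). Without 1 library Kif11 ranged from -0.063 to 0.014, Kif23 from -0.068 to 0.057, Kif20a from -0.046 to 0.096, Kif5b from -0.052 to 0.049 and Kif2a from -0.31 to 0.25. With limma on the normalized values Kif7 (0.45), Kifc2 (-0.33) and Klc3 (-0.32) were not called, and with upper-quartile factors Klc1 (-0.47) was not. The cause of these changes was not tested. With 2 libraries per genotype small differences are hard to detect, and for low genes such as Kif9 depth limits precision.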
